A study of Homo sapiens with 9 samples.

Results

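The spliceosome component genes were the 126 genes, of 33861 in the deposited table, whose KEGG annotation holds the spliceosome pathway. The term stood at 133 genes, of which 6 heat shock genes named HSPA and 1 small nuclear RNA gene named RNU were left out. The annotation filter used no measured value, but the members were chosen with earlier results of these data known. All 126 members passed the filter on low counts, which left 20988 genes for testing.

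RNA sequencing was performed in HCT116, an established human colorectal carcinoma line, with 3 libraries in each of 3 groups. The control cells carry the label NC, and their time in culture is not given in the sources used here. Activin-treated cells received 100 ng/mL activin A, a ligand of the TGF-beta family, for 5 days. Activin + HGF-treated cells received the same activin course and then 20 ng/mL HGF, the ligand of the receptor MET, for another 5 days. Cells of all groups were grown in DMEM with fetal bovine serum, and the libraries were made from total RNA after ribosomal RNA was removed. Activin + HGF-treated cells differed from activin-treated cells in 5 more days as well as in HGF, so that time and HGF cannot be told apart. Nothing in the labels says that the 3 libraries of a group came from separate cultures, and p-values then measure only the spread between these libraries.

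The libraries held 57453977 to 77016167 counts. The epithelial markers KRT19, KRT8, KRT18 and EPCAM were high, with means of 80.1 to 377 FPKM in the 3 groups, while the intestinal genes VIL1 and CDX1 stayed at or under 0.14 FPKM in every library. The intestinal gene CDX2 was expressed, with means of 3.89, 3.95 and 4.03 FPKM in control, activin-treated and activin + HGF-treated cells. CDH1 had means of 13.2, 26.5 and 17.7 FPKM in the same order. All 4 immune and all 3 endothelial markers were under 1 FPKM everywhere. COL1A1 was the only fibroblast marker above 1 FPKM, with means of 2.35, 5.12 and 3.04 FPKM in control, activin-treated and activin + HGF-treated cells. The TMM factors, which correct for the makeup of a library, ran from 0.7829 in activin + HGF replicate 1 to 1.166 in activin replicate 1, and were below 1 in all 3 activin + HGF libraries. For the members as a whole and for several of the gene lists, values with scaling to total counts are given as well.

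The spliceosome removes introns from pre-mRNA. U1 snRNP recognizes the 5′ splice site and U2 snRNP the branch site, then the U4/U6.U5 tri-snRNP joins, and the PRP19 complex and a series of RNA helicases convert the assembly into the catalytic form. A ring of Sm or LSm proteins surrounds each spliceosomal snRNA, and SR proteins and hnRNP proteins bind the pre-mRNA and influence which sites are used. Many SR protein genes limit their own output by splicing in exons that send the transcript to nonsense-mediated decay.

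Members were sorted by role into 23 genes of U2 snRNP and branch site recognition, 22 of the PRP19 complex and B complex, 15 of the tri-snRNP, 14 of the Sm and LSm rings, 12 SR proteins, 12 of the exon junction complex, TREX and cap binding, 11 hnRNP proteins, 8 of U1 snRNP and 7 helicases and factors of the catalytic steps. Both remaining genes, RP9 and ISY1-RAB43, were in none of these lists. Members were abundant. Their median level was 14.3 FPKM over the 9 libraries, against 1.65 FPKM for all genes tested. SNRPB, which encodes a core Sm protein, was the most abundant at 190.0 FPKM, and RBMXL2, a retrogene relative of RBMX, was the only member under 1 FPKM.

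Spliceosome genes were lower in activin-treated cells than in control cells. Of the 126 members, 57 fell, 0 rose and 69 did not pass the test (edgeR quasi-likelihood test, adjusted p under 0.05 over all genes tested). Of all genes tested, 8.41% fell and 9.58% rose. At an unadjusted p under 0.05, 1 member was higher, and DESeq2 called 0 higher and 73 lower, whereas limma on the FPKM values called 2 higher. The median log2 fold change was -0.68 for the members and 0.02 for all genes tested. In bulk RNA, fewer cells of a type and less RNA per cell cannot be told apart. With a change of at least 1 on the log2 scale as well, 25 members were called, all lower, beside 11.4% of all genes in both directions.

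With TMM scaling, some members were higher after HGF than with activin alone. In activin + HGF-treated against activin-treated cells 21 members rose and 4 fell, while 7.41% of all genes rose and 5.45% fell (edgeR). The median log2 fold change was 0.27 for the members and -0.04 for all genes, and it was -0.07 against -0.38 when libraries were scaled to their total counts, where 9 members rose and 9 fell. The members' median stood 0.31 above that of all genes under either scaling. At a change of at least 1 on the log2 scale, 6 members rose and 2 fell, beside 8.09% of all genes in both directions.

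Against control, members were also lower on balance in activin + HGF-treated cells. In this comparison 34 members fell and 5 rose, while 15.0% of all genes fell and 16.4% rose (edgeR). The median log2 fold change was -0.34 for the members and -0.03 for all genes, and with scaling to total counts 61 members fell and 4 rose. At a change of at least 1 on the log2 scale, 23 members fell and 2 rose, beside 21.5% of all genes in both directions. The 3 comparisons share libraries, each group entering 2 of them, so their values are given side by side and not as separate evidence.

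Because members were abundant, the same values were set beside the 3132 protein-coding genes with a mean of at least 10 FPKM, a limit chosen after the values were seen. Of these, 16.5% fell with activin, with a median log2 fold change of -0.06, against 39 of the 80 members above that limit with a median of -0.63. From activin to activin + HGF 21.9% of the abundant genes rose, with a median of 0.34, and 17 of the 80 members, or 21.2%, with a median of 0.31. The share of members that rose after HGF was thus near that of other abundant genes. Against control 14.0% of the abundant genes fell and 35.3% rose, with a median of 0.29, whereas 22 of the 80 members fell and 5 rose, with a median of -0.23.

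**Figure D1:**
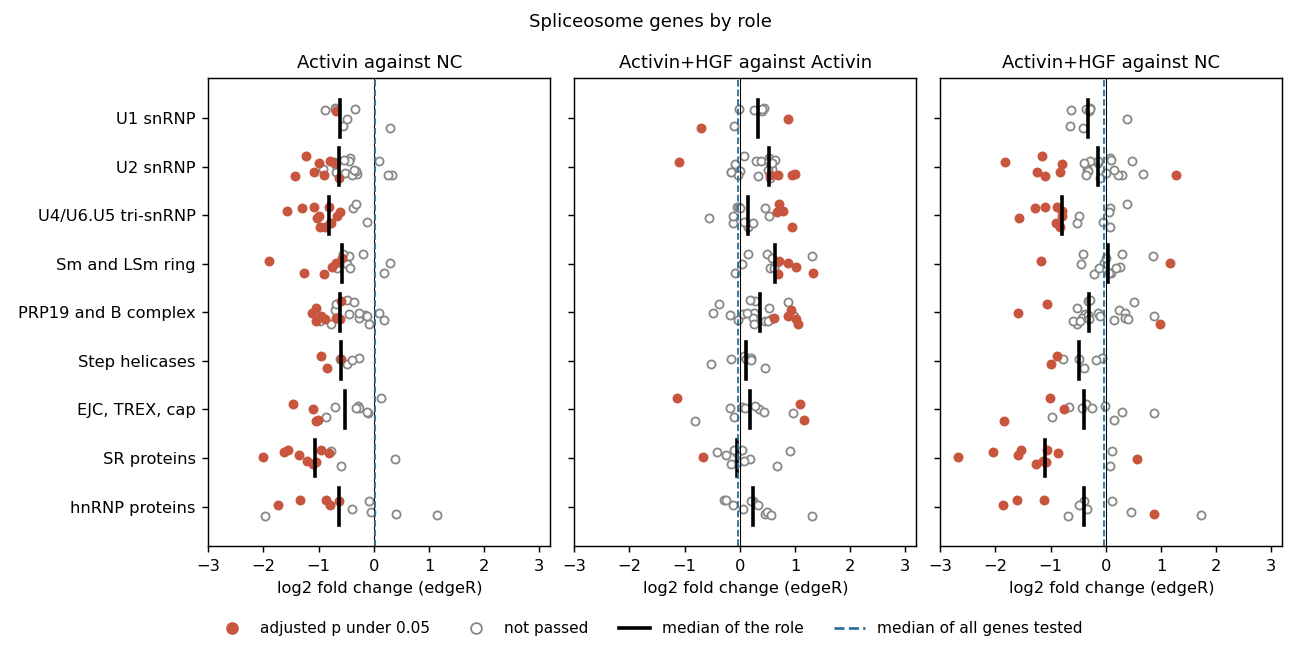
Log2 fold changes (x axis, edgeR) of the 124 members with a role, 1 point per gene, by role (y axis) in the 3 comparisons, with filled points at an adjusted p under 0.05, black bars at the median of each role and a dashed line at the median of all genes tested. With activin every role has its median below 0, with -1.07 for the SR proteins and -0.82 for the tri-snRNP. After HGF the Sm and LSm ring moves up to 0.63 and the SR proteins stay at -0.05, with library scaling by TMM.

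SRSF3, the smallest of the SR proteins and a regulator of exon inclusion and mRNA export, showed the largest decrease with activin. SRSF3 (chromosome 6, 36594353 to 36605600 in the deposited table, plus strand) had 205, 198 and 213 CPM (counts scaled to the TMM library size) in control libraries, 53.4, 47.3 and 52.0 in activin libraries and 35.6, 29.3 and 31.0 in activin + HGF libraries. All 3 groups were separate from each other. It was 4.03-fold lower with activin (log2 fold change -2.01 ± 0.153 SE, adjusted p = 4.18e-05, edgeR), 6.42-fold lower with activin + HGF than in control (-2.68 ± 0.157, adjusted p = 6.39e-06), and lower after HGF than with activin alone (-0.67 ± 0.149, adjusted p = 0.0186). Leaving out 1 library ended the last call in 3 of 6 fits.

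SRSF7, a close relative of SRSF3 with a zinc knuckle, followed the same order of means. Its levels were 111, 111 and 119 CPM in control, 36.5, 28.0 and 45.6 with activin and 24.5, 29.9 and 28.2 with activin + HGF. Both treated groups lay below control without overlap, and they overlapped with each other. The log2 fold changes against control were -1.63 ± 0.198 (adjusted p = 0.0005) and -2.04 ± 0.201 (adjusted p = 9.05e-05, edgeR).

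HNRNPM, an hnRNP protein that binds GU-rich RNA and acts in alternative splicing of epithelial and mesenchymal isoforms, and RBMX, an X-linked RNA-binding protein that cooperates with TRA2B, were also low in both treated groups. HNRNPM had 322, 328 and 314 CPM in control, 89.3, 107 and 92.9 with activin and 104, 74.2 and 86.1 with activin + HGF. RBMX had 177, 167 and 169 CPM in control, 72.2, 57.4 and 74.2 with activin and 59.2, 54.6 and 54.6 with activin + HGF. Control libraries lay above all treated libraries for both genes. HNRNPM was 3.33-fold lower with activin and 3.64-fold lower with activin + HGF than in control (adjusted p = 0.000171 and 6.47e-05, edgeR), and RBMX 2.52-fold and 3.05-fold lower (adjusted p = 0.000414 and 8.84e-05).

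A few members went the other way. SF3B6, the branch site subunit of the SF3b complex, had 83.2, 81.3 and 79.6 CPM in control, 89.7, 111 and 106 with activin and 232, 172 and 187 with activin + HGF. BUD31, a small protein of the activated spliceosome, had 57.3, 62.8 and 51.7 CPM in control, 47.7, 61.7 and 53.4 with activin and 139, 99.0 and 102 with activin + HGF. Only the activin + HGF libraries stood clear of control for BUD31, whereas for SF3B6 every treated library was above every control library. Against control SF3B6 was 2.42-fold higher (1.28 ± 0.169, adjusted p = 0.000464) and BUD31 1.98-fold higher (0.99 ± 0.188, adjusted p = 0.00324, edgeR) with activin + HGF. Neither gene passed with activin. The calls of both from activin to activin + HGF were lost without activin replicate 1, and that of SF3B6 also with only the 2 groups compared. Of the 100-base stretches of BUD31 transcripts, 32.7% also occur in transcripts of other genes, mostly PTCD1, and reads from both cannot be told apart there.

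**Figure D2:**
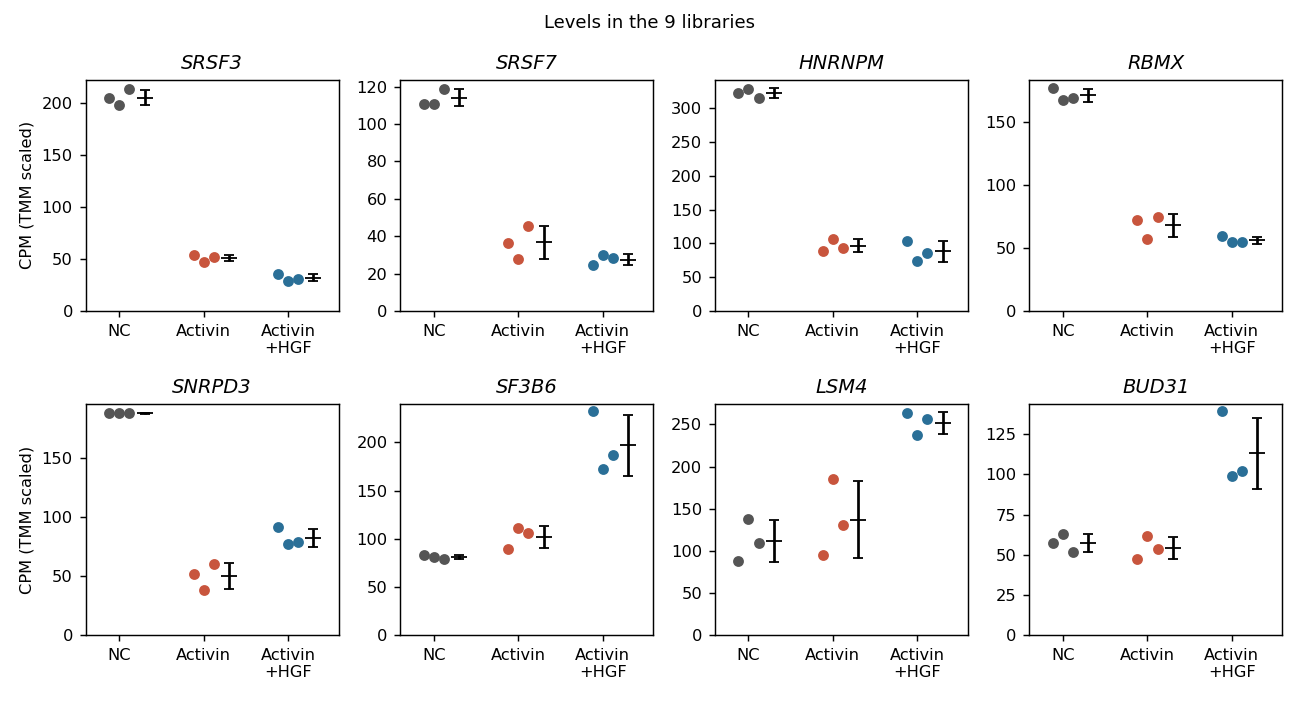
Levels (y axis, TMM-scaled CPM from 0) of 8 members in the 9 libraries by group (x axis), with 1 point per library and the group mean ± SD to the right of the points (n = 3). SRSF3, SRSF7, HNRNPM, RBMX and SNRPD3 are high in control and low in both treated groups, and SF3B6, LSM4 and BUD31 are highest with activin + HGF.

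The calls of these 8 members against control under activin + HGF held in every alternative fit, as did those of SRSF3, SRSF7, HNRNPM, RBMX and SNRPD3 under activin. Promoters of 6 of them are shown, chosen after the motif matches were seen so that each kind of match has an example. Each line gives 160 bases before the RefSeq transcription start (GRCh38.p14), 5′ to 3′ on the gene's strand, where bases may be transcribed from other starts. If the deposited coordinates are on GRCh38, the stretches of HNRNPM and BUD31 lie wholly within the deposited gene. Those of SRSF3, SRSF7 and SF3B6 lie partly within it. Capitals mark matches, on either strand, to CCAAT (the factor NF-Y), to the TATA box, to the ETS motif CCGGAAG or to the NRF1 motif.
SRSF3: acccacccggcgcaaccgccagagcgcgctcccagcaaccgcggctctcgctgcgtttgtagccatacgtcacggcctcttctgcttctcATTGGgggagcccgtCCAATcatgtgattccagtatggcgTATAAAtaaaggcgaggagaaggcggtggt
SRSF7: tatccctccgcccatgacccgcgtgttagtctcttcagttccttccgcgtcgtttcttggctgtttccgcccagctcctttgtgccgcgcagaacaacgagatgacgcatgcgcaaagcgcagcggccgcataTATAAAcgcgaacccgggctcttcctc
RBMX: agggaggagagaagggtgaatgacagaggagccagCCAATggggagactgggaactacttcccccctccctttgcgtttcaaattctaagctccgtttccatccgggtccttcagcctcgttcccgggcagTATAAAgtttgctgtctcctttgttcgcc
HNRNPM: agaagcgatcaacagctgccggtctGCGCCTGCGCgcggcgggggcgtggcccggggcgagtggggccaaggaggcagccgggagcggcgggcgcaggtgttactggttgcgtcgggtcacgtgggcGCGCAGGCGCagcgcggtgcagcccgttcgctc
SF3B6: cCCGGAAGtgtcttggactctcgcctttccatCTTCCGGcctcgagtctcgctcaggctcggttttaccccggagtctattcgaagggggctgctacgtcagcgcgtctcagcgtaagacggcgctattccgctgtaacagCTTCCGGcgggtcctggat
BUD31: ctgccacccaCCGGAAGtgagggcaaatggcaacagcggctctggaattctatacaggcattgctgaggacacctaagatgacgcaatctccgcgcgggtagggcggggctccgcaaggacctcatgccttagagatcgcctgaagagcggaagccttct

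The stretch of SRSF3 lies at chr6:36594202-36594361 (plus strand), SRSF7 at chr2:38751362-38751521 (minus), RBMX at chrX:136880726-136880885 (minus), HNRNPM at chr19:8444815-8444974 (plus), SF3B6 at chr2:24076327-24076486 (minus) and BUD31 at chr7:99408809-99408968 (plus). The TATA box match, TATAAA, began 30 bases before the start in SRSF3, 27 in SRSF7 and 29 in RBMX. SRSF3 held CCAAT 55 and, on the other strand, 70 bases before the start. SF3B6 held 3 matches to CCGGAAG, and BUD31 held 1. For SRSF7 the second of 2 RefSeq starts is shown.

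Promoters from 250 bases before to 50 bases after a RefSeq start were found for 109 of the 126 members. CCGGAAG stood in 45.9% of these, against 19.9% of the promoters of 12381 genes tested and 12.2% of all 27305 genes. The NRF1 motif was in 22.0%, 11.6% and 6.98%, and AAGATGGCG (YY1) in 9.17%, 4.05% and 2.14%. CCAAT with 44.0%, 42.5% and 39.7% and TATAAA with 9.17%, 9.30% and 14.0% were near the share of the genes tested. TTTNGCGC (E2F) was in 1.83% of the members' promoters against 3.38% of those of genes tested, TGACGTCA (CRE) in 2.75% against 3.53% and TGACGTNA, which includes the CRE, in 7.34% against 5.34%. CACGTG (E-box) was in 8.26% against 12.03%, and GGGGCGGGG (SP factors) in 22.9% against 31.2%. Both strands were searched for every motif. CCGGAAG was present in 22 of 50 matched members that fell with activin and in 28 of 59 that did not pass, and TATAAA in 6 of 50 and 4 of 59. Of the 10 SR protein genes with a promoter, 2 held CCGGAAG. Members were more abundant than the genes tested, and motif shares among abundant genes alone were not measured. These matches are letters in a window, and no binding was measured.

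Counts by role in this and the following paragraphs stand beside the shares of all genes tested. With activin 8.41% of these fell and 9.58% rose, after HGF 5.45% and 7.41%, and with activin + HGF against control 15.0% and 16.4%. Of the SR proteins 9 of 12 fell with activin, with a median of -1.07. The median of the role was below that of the tri-snRNP in activin replicate 2 (-1.38 against -0.63) but above it in replicates 1 (-0.98 against -1.03) and 3 (-0.85 against -0.93). They bind exonic enhancers and help recruit U1 snRNP and U2AF. TRA2A and TRA2B, the human relatives of fly transformer-2, fell by 1.56 and 1.22 on the log2 scale (adjusted p = 0.00843 and 0.00194, edgeR). SRSF8 changed by -1.35, SRSF10 by -1.11, SRSF6 by -1.04, SRSF2 by -0.95 and SRSF5 by -0.81, with adjusted p of 0.00839 to 0.041. SRSF1, SRSF4 and SRSF9 did not pass, with changes of -0.78, -0.59 and 0.38.

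With 1 library left out, 6 to 8 SR protein genes fell with activin. TRA2B had 139, 143 and 140 CPM in control, 57.8, 51.5 and 71.7 with activin and 77.8, 58.3 and 55.0 with activin + HGF. The treated libraries reached at most 77.8 CPM, well below control. SRSF6 was more variable, with 266, 262 and 259 CPM in control, 167, 109 and 106 with activin and 186, 73.0 and 112 with activin + HGF. Its calls with activin and with activin + HGF against control were each lost in 5 of 6 fits without 1 library, although no treated library reached the control level. The call of SRSF5 with activin was lost in 4 of them, and that of SRSF10 without NC replicate 1.

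SR proteins remained low after HGF. From activin to activin + HGF 0 of 12 rose and 1, SRSF3, fell, with a median of -0.05, which was -0.43 with scaling to total counts, where that of all genes was -0.38. At an unadjusted p under 0.05, 2 were higher, and DESeq2 called 1 higher. Against control 9 of 12 fell and 1 rose, with a median of -1.11, and with scaling to total counts again 9 fell but 0 rose. SRSF9 was the one that rose, with 134, 137 and 143 CPM in control, 145, 219 and 175 with activin and 211, 196 and 209 with activin + HGF (0.57 ± 0.171, adjusted p = 0.0282). No fit with 1 library left out made that call, and 41.6% of the 100-base stretches of SRSF9 transcripts are shared with GATC.

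SRSF1, the founding SR protein, had 147, 129 and 132 CPM in control, 95.6, 55.0 and 85.9 with activin and 247, 107 and 86.9 with activin + HGF. Activin + HGF replicate 1 was above all other libraries. SRSF4 had 95.8, 106 and 103 CPM in control, 73.7, 53.4 and 75.8 with activin and 125, 79.6 and 118 with activin + HGF. SRSF1 shares 49.2% of its 100-base stretches with other genes and SRSF2 23.1%, the latter with MFSD11. All 12 SR protein genes have at least 1 transcript of the nonsense-mediated decay class in the deposited annotation, compared with 65 of the 126 members and 35.3% of the protein-coding genes tested. Counts here pool all transcripts of a gene, so that a change of isoform within a gene was not measured.

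**Figure D3:**
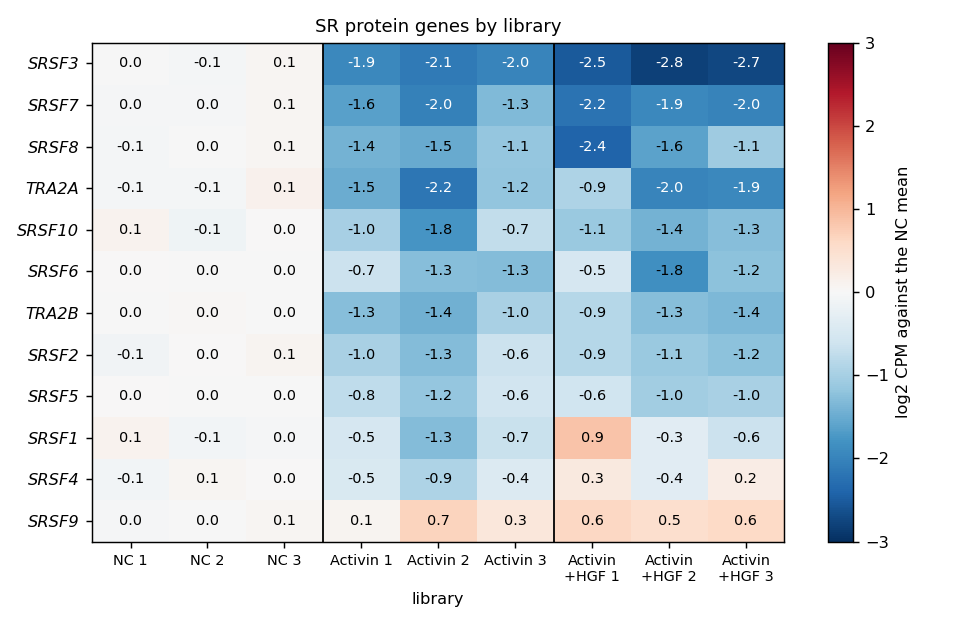
Log2 level of the 12 SR protein genes (rows) in each library (columns), relative to the mean of the 3 control libraries on the log2 scale, with blue for lower and red for higher values, printed in each cell. SRSF3, SRSF7 and SRSF8 are below -1 in all 6 treated libraries, while SRSF9 is above 0 in all 6.

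Of the tri-snRNP genes 12 of 15 fell with activin, with a median of -0.82. PPIH, a cyclophilin bound to the U4/U6 proteins, had 55.2, 59.0 and 50.4 CPM in control, 15.8, 22.3 and 17.1 with activin and 38.1, 29.6 and 27.7 with activin + HGF. Each group was separate from the others (activin against control -1.58 ± 0.2, adjusted p = 0.000643; activin + HGF against activin 0.79 ± 0.197, adjusted p = 0.0288, edgeR), but the latter call was lost in 4 of 6 fits without 1 library and with scaling to total counts.

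With 1 library left out, 6 to 8 tri-snRNP genes fell with activin, or 13 without activin replicate 2. Other tri-snRNP genes were low in both treated groups. SNRNP200, the helicase that unwinds U4/U6, had 540, 543 and 521 CPM in control, 326, 316 and 281 with activin and 273, 297 and 281 with activin + HGF. PRPF8, the scaffold of the catalytic core, had 607, 645 and 587 CPM in control, 366, 476 and 319 with activin and 337, 380 and 341 with activin + HGF. Both fell with activin (-0.80 and -0.66, adjusted p = 0.00345 and 0.0241) and were lower than control with activin + HGF (-0.91 and -0.80, adjusted p = 0.00096 and 0.00633, edgeR). The call of PRPF8 with activin was lost in 5 of 6 fits without 1 library. EFTUD2, the U5 GTPase, changed by -1.03 and -1.58, and DDX23, the helicase needed for integration of the tri-snRNP, by -1.3 and -1.29 (all 4 passed). The change between the treated groups did not pass for any of these 4, with values of -0.55 to 0.01.

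A further set of tri-snRNP genes was higher after HGF. SART1, which tethers the tri-snRNP to the pre-spliceosome, had 83.0, 92.1 and 81.4 CPM in control, 41.1, 55.2 and 43.4 with activin and 91.5, 89.7 and 88.7 with activin + HGF. The activin libraries lay below the other 6 (-0.88 and 0.95, adjusted p = 0.00491 and 0.00779), and activin + HGF differed from control by 0.07 (adjusted p = 0.764, edgeR). USP39 and TXNL4A rose by 0.67 and 0.71 from activin to activin + HGF, with adjusted p of 0.0292 and 0.0326. The role as a whole had 4 genes that rose and 0 that fell in that comparison, with a median of 0.14 that was -0.17 under scaling to total counts, where 1 rose, and limma on FPKM called 3 lower. The 4 genes were 26.7% of the role, beside 7.41% of all genes tested and 21.9% of protein-coding genes with a mean of at least 10 FPKM. Against control 8 of 15 fell and 0 rose with activin + HGF, while DESeq2 called 10 lower and 0 higher, and 0 were higher at an unadjusted p under 0.05.

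Of the Sm and LSm ring genes 6 of 14 fell with activin, with a median of -0.57, and 5 of 14 rose from activin to activin + HGF, with a median of 0.63 that remained above 0 (0.31) with scaling to total counts, where 2 rose. The 5 that rose were 35.7% of the role, beside 7.41% of all genes tested. Of protein-coding genes with a mean of at least 10 FPKM 21.9% rose, with a median of 0.34. Against control 1 rose and 1 fell with activin + HGF, with a median of 0.04 that was -0.24 with scaling to total counts.

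SNRPD3, a core Sm protein, had 188, 188 and 188 CPM in control, 52.3, 38.8 and 60.5 with activin and 91.5, 77.1 and 79.5 with activin + HGF. It was the only ring gene that fell in both comparisons with control (-1.90 ± 0.188, adjusted p = 0.000175; -1.18 ± 0.184, adjusted p = 0.0011, edgeR). Its rise of 0.71 from activin to activin + HGF (adjusted p = 0.0317) was lost in 5 of the 6 fits without 1 library. The partner that binds beside it, SNRPB, ranged from 204 to 379 CPM over the 9 libraries and passed in no comparison, and SNRPD1 did not pass either, with -0.56, 0.14 and -0.42.

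With 1 library left out, 2 to 3 ring genes rose after HGF, or 11 without activin replicate 2. LSM7, of the ring on U6 snRNA, had the largest increase after HGF. It measured 73.6, 79.7 and 78.2 CPM in control, 25.2, 44.3 and 26.7 with activin and 88.0, 75.4 and 78.0 with activin + HGF. The activin libraries stood below the other 6, which overlapped (activin + HGF against activin 1.33 ± 0.222, adjusted p = 0.00723; against control 0.06 ± 0.218, adjusted p = 0.862, edgeR). LSM3 was 1.68-fold lower with activin and then 2.01-fold higher after HGF (adjusted p = 0.0112 and 0.00699), and the first of these calls was lost in 3 of 6 fits without 1 library. LSM7, LSM3, SYF2 and SART1 were the 4 members whose rise after HGF was called in every alternative fit.

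LSM4, another ring protein, was raised against control. It had 87.9, 138 and 110 CPM in control, 94.9, 185 and 131 with activin and 263, 238 and 256 with activin + HGF. Only the activin + HGF libraries were clear of the others (1.17 ± 0.25 against control, adjusted p = 0.00587, edgeR). The call of LSM4 against activin alone (0.88, adjusted p = 0.0432) was lost in 5 of 6 fits without 1 library. SNRPD2 was spread widely, with 33.5, 118 and 39.5 CPM with activin and 217, 171 and 81.9 with activin + HGF, and its change of 1.3 after HGF did not pass (adjusted p = 0.0921).

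Among U2 snRNP and branch site genes 8 of 23 fell with activin, with a median of -0.64. DDX46, the helicase of U2 snRNP assembly, had 183, 133 and 171 CPM in control, 76.7, 34.0 and 70.3 with activin and 85.9, 72.8 and 69.2 with activin + HGF. SF3A3, a subunit of SF3a, had 150, 165 and 155 CPM in control, 69.3, 56.4 and 74.0 with activin and 59.1, 72.2 and 80.1 with activin + HGF. Both groups of treated libraries were below control for these genes (DDX46 -1.43 and -1.10, SF3A3 -1.23 and -1.15, all passed). SF3B1, the largest SF3b subunit and a frequent target of mutation in blood cancers, had 469, 396 and 429 CPM in control, 262, 127 and 291 with activin and 452, 285 and 276 with activin + HGF, and its change with activin of -0.93 had an adjusted p of 0.0564.

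U2AF1 and U2AF2 form the dimer that reads the 3′ splice site. U2AF2 had 208, 222 and 221 CPM in control, 124, 184 and 108 with activin and 213, 194 and 197 with activin + HGF, and its fall of 0.64 with activin (adjusted p = 0.0466, edgeR) was lost in 5 of 6 fits without 1 library. U2AF1 changed by -0.90 with activin (adjusted p = 0.00244) and by 0.54 after HGF (adjusted p = 0.037), the latter call lost in 5 of 6 such fits. U2AF1 and U2AF1L5 share 89.4% of their 100-base stretches, so counts of the pair may be split between them.

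From activin to activin + HGF 4 U2 genes rose, SF3B6, SMNDC1, SNRPB2 and U2AF1, and 1 fell, with a median of 0.52 that was 0.18 with scaling to total counts. Those that rose were 17.4% of the role, beside 7.41% of all genes tested and 21.9% of protein-coding genes with a mean of at least 10 FPKM. The count that rose was 12 without activin replicate 2 and 0 to 2 without any other library. The one that fell was U2SURP, a protein of the 17S U2 particle. It had 126, 98.4 and 121 CPM in control, 83.6, 33.8 and 91.9 with activin and 33.5, 33.6 and 29.9 with activin + HGF. Activin replicate 2 was at the level of the activin + HGF libraries, and the call between these groups (-1.11 ± 0.312, adjusted p = 0.0427) was lost in 5 of 6 fits without 1 library. Against control U2SURP was 3.56-fold lower (adjusted p = 0.002, edgeR).

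Of 8 U1 genes 1, or 12.5%, fell with activin, near the 8.41% of all genes tested. It was SNRPC, by 0.69 (adjusted p = 0.0253, edgeR), a call lost in 5 of 6 fits without 1 library. At an unadjusted p under 0.05, 6 were lower, and the median was -0.62. SNRNP70, the U1-70K protein, had 222, 224 and 220 CPM in control, 143, 190 and 144 with activin and 330, 276 and 265 with activin + HGF. It was higher with activin + HGF than with activin (0.87 ± 0.168, adjusted p = 0.0123), and its change of 0.39 against control did not pass (adjusted p = 0.103). The former call was lost without activin replicate 1 or 3 and with only the 2 groups compared. PRPF40B fell after HGF by 0.71 (adjusted p = 0.0289), a call that 4 of 6 fits without 1 library lost. SNRPA, the U1-A protein, did not pass, with -0.65 against control (adjusted p = 0.0595). Against control 0 of the 8 passed with activin + HGF, beside 15.0% of all genes that fell and 16.4% that rose. There 1 was higher and 2 lower at an unadjusted p under 0.05, and 1 was lower by DESeq2.

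In the PRP19 complex and B complex 8 of 22 fell with activin and 5 rose from activin to activin + HGF, with medians of -0.61 and 0.36, the latter 0.0 with scaling to total counts. Without activin replicate 2 these counts were 10 and 6, and without activin replicate 1 they were 3 and 1. The share that rose, 22.7%, was near the 21.9% of protein-coding genes with a mean of at least 10 FPKM. Against control 2 fell and 1 rose with activin + HGF, or 9.09% and 4.55%. Of all genes tested 15.0% fell and 16.4% rose there, and limma on FPKM called 12 of the role lower and 1 higher. CDC5L, a core subunit, fell by 1.04 with activin (adjusted p = 0.0162, lost in 4 of 6 fits without 1 library), while PRPF19, the ubiquitin ligase that names the complex, did not pass, with 158, 200 and 163 CPM in control, 131, 211 and 123 with activin and 107, 137 and 169 with activin + HGF. ZMAT2 had 77.5, 82.8 and 84.8 CPM in control, 39.0, 38.8 and 47.9 with activin and 86.6, 69.0 and 73.5 with activin + HGF. SYF2 had 47.5, 46.8 and 46.9 CPM in control, 30.2, 28.6 and 33.3 with activin and 74.6, 54.7 and 57.4 with activin + HGF. For both, the activin libraries lay below the other 6 (ZMAT2 -0.96 and 0.87, adjusted p = 0.00312 and 0.0113; SYF2 -0.62 and 1.02, adjusted p = 0.0303 and 0.00724, edgeR), though the first call of SYF2 was lost in 5 of 6 fits without 1 library. The second call of ZMAT2 was lost without activin replicate 1, with scaling to total counts and with only the 2 groups compared. AQR, the helicase that binds the intron, had 55.3, 47.3 and 45.7 CPM in control, 24.9, 11.4 and 31.7 with activin and 17.3, 16.2 and 15.3 with activin + HGF, and was lower than control in both (-1.12 and -1.60, adjusted p = 0.0298 and 0.0036).

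Of the helicases and factors of the catalytic steps, 3 of 7 fell with activin, DHX8, DHX15 and DHX38, with a median of -0.60. The count was 4 without activin replicate 2 and 1 without any other library, and the call of DHX15 was lost in 5 of these 6 fits and with scaling to total counts. DHX8, which releases the spliced mRNA, had 96.8, 105 and 94.8 CPM in control, 50.7, 51.5 and 50.5 with activin and 54.7, 51.5 and 54.0 with activin + HGF. The 6 treated libraries lay within 50.5 to 54.7 CPM (-0.96 and -0.89 against control, adjusted p = 0.0014 and 0.00119, edgeR). From activin to activin + HGF 0 of 7 passed in either direction, also at an unadjusted p under 0.05 and by DESeq2.

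Of the exon junction, TREX and cap binding genes 4 of 12 fell with activin, ALYREF, ACIN1, NCBP1 and THOC3, where the call of NCBP1 was lost in 4 of 6 fits without 1 library and with scaling to total counts. ALYREF, the mRNA export adaptor, had 132, 141 and 132 CPM in control, 36.4, 66.1 and 44.8 with activin and 126, 91.0 and 97.7 with activin + HGF. Each group was separate from the others (-1.46 ± 0.23, adjusted p = 0.00208; 1.09 ± 0.228, adjusted p = 0.0152), and against control the change with activin + HGF was -0.36 (adjusted p = 0.246, edgeR). Its rise after HGF was lost without activin replicate 1 or 3. THOC3, a TREX subunit, moved by -1.01 and then 1.16, but 41.3% of its 100-base stretches are shared with other genes.

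NCBP1, the large cap-binding subunit, was lowest with activin + HGF. It had 70.2, 66.4 and 66.8 CPM in control, 34.7, 21.2 and 43.2 with activin and 14.5, 19.5 and 22.3 with activin + HGF, and was 3.61-fold lower than control with activin + HGF (adjusted p = 0.000699, edgeR). MAGOHB, one of a pair of nearly identical exon junction proteins, had 15.0, 14.3 and 14.4 CPM in control, 12.7, 15.7 and 19.4 with activin and 5.09, 8.93 and 7.72 with activin + HGF. Its fall after HGF (-1.14 ± 0.249, adjusted p = 0.0179) was lost without activin replicate 3, while its partner MAGOH did not pass, with 0.27. EIF4A3, the exon junction helicase, did not pass in any comparison, with -0.13, 0.43 and 0.29.

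Among the hnRNP proteins 5 of 11 fell with activin, HNRNPM, RBMX, HNRNPU, HNRNPA3 and HNRNPA1. HNRNPU, the nuclear scaffold factor, had 718, 719 and 683 CPM in control, 462, 361 and 345 with activin and 328, 341 and 305 with activin + HGF. HNRNPA1, the most abundant member by read count, had 1130, 1140 and 1110 CPM in control, 715, 654 and 818 with activin and 996, 791 and 778 with activin + HGF. All treated libraries were below control for both, and HNRNPU passed against control in both groups (-0.86 and -1.12, adjusted p = 0.00451 and 0.000641) but HNRNPA1 with activin alone (-0.63 and -0.40, adjusted p = 0.0205 and 0.079, edgeR), a call lost in 4 of 6 fits without 1 library.

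HNRNPC and HNRNPK were not lower in either treated group. HNRNPC, which binds uridine tracts of nascent RNA, had 512, 599 and 553 CPM in control, 616, 901 and 694 with activin and 1230, 744 and 1060 with activin + HGF, and rose against control with activin + HGF (0.87 ± 0.214, adjusted p = 0.0117), a call lost without NC replicate 1. HNRNPK stayed within 641 to 798 CPM in all 9 libraries and passed in no comparison. From activin to activin + HGF 0 of the 11 hnRNP genes passed, 1 was higher at an unadjusted p under 0.05, DESeq2 called 0, and limma on FPKM called 3 lower. PCBP1 had the smallest p there (0.50, adjusted p = 0.141), and 42.2% of its 100-base stretches are shared, mostly with PCBP1-AS1.

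**Figure D4:**
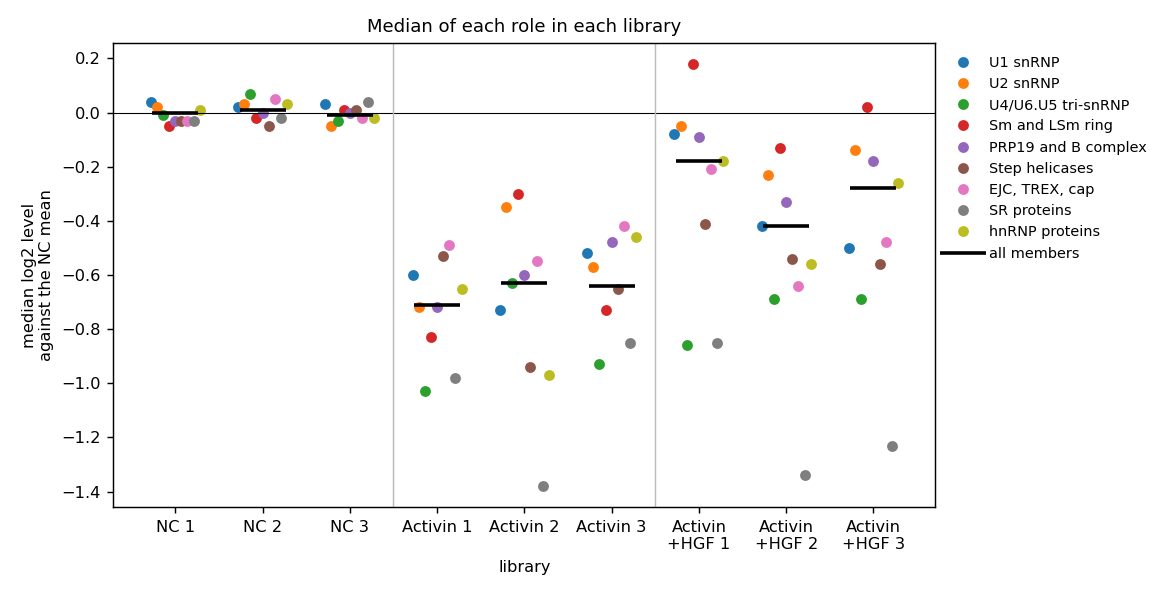
Median log2 level of the genes of each role in each library (x axis), relative to the mean of the control libraries (y axis, TMM-scaled CPM), with 1 colour per role and a black bar for all 126 members. Every role is below 0 in the 3 activin libraries, and in the activin + HGF libraries the Sm and LSm ring lies between -0.13 and 0.18 and the SR proteins between -1.34 and -0.85.

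The members as a whole had medians of -0.71, -0.63 and -0.64 in the activin libraries and of -0.18, -0.42 and -0.28 in the activin + HGF libraries, relative to control. Activin replicate 2 differed from the other 2 in the makeup of this shift, with SR proteins at -1.38 against -0.98 and -0.85 and the Sm and LSm ring at -0.30 against -0.83 and -0.73. Without it, 70 members fell with activin, and 40 rose and 8 fell after HGF. Without activin replicate 1, in contrast, 34 fell and 4 rose and 1 fell. Without activin + HGF replicate 1, 13 rose and 2 fell after HGF.

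SRSF3, HNRNPM and RBMX had the smallest p-values of all members in activin + HGF-treated against control cells. Over the 9 libraries, the log2(FPKM + 0.1) of SRSF3 was most like that of RBMX (Pearson r = 0.992), DHX8 (0.987) and HNRNPM (0.986). RBMX was most like SRSF7 and SRSF3 (0.992 each) and DHX8 (0.988), and HNRNPM like SRSF3 (0.986), DHX8 (0.982) and WBP11 (0.981). These are descriptions over libraries that share the group differences.

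Genes that build and equip the snRNPs but lie outside the pathway annotation were described next, and their counts stand beside 8.41% of all genes that fell and 9.58% that rose with activin, 5.45% and 7.41% after HGF, and 15.0% and 16.4% against control with activin + HGF. Of 24 genes of snRNP assembly and import 9 fell and 0 rose with activin (DESeq2 11 and 0, and 0 higher at an unadjusted p under 0.05), 4 rose and 2 fell from activin to activin + HGF, and 1 rose and 8 fell against control (edgeR). The balance after HGF depended on scaling, with 1 that rose and 4 that fell when libraries were scaled to their total counts. The gene that rose against control was SMN1, with 133, 98.6 and 98.8 CPM with activin + HGF, beside 32.5, 26.5 and 77.5 for SMN2. Sequence shared by SMN1 and SMN2 was not measured, and a split of reads between them was not tested. WDR77, the partner of the methyltransferase PRMT5 that modifies Sm proteins, had 53.6, 50.8 and 51.5 CPM in control, 11 to 14.3 with activin and 3.82, 8.14 and 8.23 with activin + HGF. Its change against control was -2.03 with activin and -2.95 with activin + HGF (adjusted p = 0.00102 and 8.84e-05). TOE1, which trims snRNA tails, had 18.1, 18.8 and 18.7 CPM in control, 5.97, 8.10 and 7.56 with activin and 2.09, 3.55 and 2.73 with activin + HGF.

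For WDR77 and TOE1 the 3 groups were separate and in the same order. The change of WDR77 after HGF did not pass (-0.92, adjusted p = 0.0502, edgeR), and 6 of 15 alternative fits called it. TOE1 fell with activin by 1.36 and after HGF by 1.37 (adjusted p = 0.00346 and 0.00851, edgeR). TGS1, which makes the trimethylguanosine cap of snRNAs, did not pass with activin (-0.75, adjusted p = 0.0649) and fell after HGF by 1.11 (adjusted p = 0.0208), a call that 10 of 15 alternative fits made. TGS1 had 40.0, 38.8 and 42.9 CPM in control, 27.1, 17.2 and 28.2 with activin and 8.23, 10.8 and 14.5 with activin + HGF. All 3 genes were lower than control with activin + HGF in each of 15 alternative fits. The list's count that fell with activin was 10 without activin replicate 2 and 3 to 5 without any other library, and the count that rose after HGF was 0 without activin replicate 1 or 3.

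Of 14 Integrator genes, whose complex cleaves the 3′ ends of nascent snRNAs, 4 fell with activin, 1 after HGF and 5 against control, and 0 rose in any (DESeq2 0 as well, and 0 at an unadjusted p under 0.05). INTS3 had 59.6, 66.1 and 54.9 CPM in control, 49.7, 43.4 and 48.3 with activin and 19.8, 26.9 and 21.4 with activin + HGF. It fell after HGF (-1.05, adjusted p = 0.00709), whereas INTS9 and INTS4 fell with activin (-0.82 and -0.78, adjusted p = 0.0257 and 0.0149, edgeR). The count with activin was 0 without NC replicate 1 or 2 and at most 5 in the other alternative fits. The count against control was 2 without NC replicate 1, 3 without NC replicate 3, 9 with scaling to total counts and 10 with limma on log2(FPKM + 0.1).

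Of 11 minor spliceosome genes 3 fell and 1 rose with activin and 3 fell and 1 rose with activin + HGF against control, and 0 passed between the treated groups (DESeq2 0, and 0 at an unadjusted p under 0.05). SNRNP25, a U11 protein, had 20.8, 24.4 and 19.6 CPM in control, 6.35, 9.29 and 7.37 with activin and 9.46, 7.65 and 7.63 with activin + HGF (-1.49 and -1.39 against control, adjusted p = 0.00129 and 0.00107). ARMC7 fell by 1.06 and 1.42 and ZMAT5 rose by 0.97 and 1.02 in the same comparisons (adjusted p = 0.00278 to 0.0207, edgeR), and with 1 library left out 1 or 2 genes of the list fell with activin.

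Of 11 SR protein kinases and import factors 1 fell with activin, a share near the 8.41% of all genes, TNPO3, the importin of SR proteins, by 0.63 (adjusted p = 0.0337), and 1 rose after HGF, CLK3 by 0.76 (adjusted p = 0.0459), beside 7.41% of all genes, calls held by 5 and 3 of 15 alternative fits. Against control 3 fell, among them SRPK1, the main SR protein kinase, with 130, 128 and 136 CPM in control, 101, 60.8 and 112 with activin and 67.6, 80.2 and 78.7 with activin + HGF (-0.80, adjusted p = 0.0186, edgeR). With 1 library left out, at most 1 of the 11 genes fell against control. CLK1 passed in no comparison, with 0.12, 0.30 and 0.42.

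Among 40 splicing regulators outside the annotation 5 rose and 7 fell with activin, 1 rose and 1 fell after HGF, and 6 rose and 12 fell against control. The counts that rose lie near the shares of all genes, 9.58% with activin and 16.4% against control. After HGF 0 rose and 6 fell with scaling to total counts. With activin the count that fell was 11 without activin replicate 2 and 2 to 4 without any other library, and the count that rose was 1 to 3 without activin replicate 1 or any NC replicate. Against control 4 to 10 fell with 1 library left out, with 4 without NC replicate 3. ESRP1, which directs epithelial splicing, had 118, 119 and 118 CPM in control, 309, 233 and 288 with activin and 175, 173 and 179 with activin + HGF. Its 3 groups were separate, with a rise of 1.22 with activin and a fall of 0.66 after HGF (adjusted p = 0.000586 and 0.0217, edgeR). The rise of ESRP1 was called in 15 of 15 alternative fits and its fall after HGF in 10. ESRP2 did not change in parallel, with 0.06, -0.58 and -0.52, of which the last passed (adjusted p = 0.0495), a call made by 7 of 15 alternative fits. KHDRBS3 rose with activin by 0.77 and HNRNPA0 rose after HGF by 0.62 (adjusted p = 0.018 and 0.0322), calls made by 11 and 6 of 15 alternative fits, and both were higher than control with activin + HGF in each of the 15. PTBP1, the polypyrimidine tract binding repressor, passed in no comparison, with -0.80, 0.71 and -0.08, and SRSF11, an SR protein outside the annotation, fell with activin by 0.77 (adjusted p = 0.0355), which 6 of 15 alternative fits called.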

How the data were processed

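HCT116 RNA was sequenced in 9 libraries, 3 per group. For every gene the authors deposited unnormalized read counts, and FPKM values scaled by them for depth and transcript length. The submitters' processing notes name cutadapt 1.9, HISAT2 2.0.4 and StringTie 1.3.4d. The genome build is not given in the sources used here; the start or end of 88 of the 126 members is identical in GENCODE 29 (GRCh38). Whether counting used strand is not given either.

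All 33861 genes were fitted with edgeR 4.0.16 (filterByExpr, TMM, glmQLFit, glmQLFTest, a mean per group, no block) in R 4.3.3 on the deposited counts, and p-values were adjusted over the 20988 genes tested by the Benjamini-Hochberg method. A gene was called at an adjusted p under 0.05. CPM are TMM scaled. Alternatives used DESeq2 1.42.0, limma 3.58.1 on log2(FPKM + 0.1) or log2(FPKM + 1), other scalings and filters, a replicate block, fits to only the groups compared, other thresholds, and each library left out. Leaving out members with at least 50% shared sequence was added after seeing the data. The scripts were tested on simulated data. An exact permutation test (two-sided) cannot go below p = 0.1 with 3 libraries per group and was not used.

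The members, role lists, pathway lists and tests were chosen with earlier results of these data known. Named genes were core members of each role, all SR proteins, up to 6 largest called increases and decreases per comparison with a mean of at least 1 FPKM in the higher group, the smallest p of each role, and up to 3 genes per further list with ESRP1, ESRP2, PTBP1, SRPK1 and CLK1. Other members whose role or place in a count called for a name (HNRNPA3, EFTUD2, DDX23, USP39, TXNL4A, AQR, DDX46, SNRPD2, SMNDC1, SNRPB2, DHX38) were named after their values were seen. SRSF11 is in the table without the annotation; SNRPN and SRSF12 are not reported here. Promoters are RefSeq (GRCh38.p14) sequences matched by symbol. Shared sequence was measured as the share of 100-base stretches of a gene's GENCODE 29 transcripts found in transcripts of other genes. Tables and figures were made in Python 3.11.15 (pandas 2.3.3, numpy 2.4.6, matplotlib 3.10.9).

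Same-numbered libraries were checked for pairing. Their deviations from the group means correlated at -0.0606 to 0.0882 over 9 pairs, so the numbers were not taken as pairs. No replicates agreed within sampling noise.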

Additional observations from a re-analysis of the deposited data

How the results depend on the processing

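For activin against control, 57 members were called. The count was 25 with a log2 change of at least 1 and 29 at an adjusted p under 0.01, fewer by construction. Leaving out 1 library gave 31 (without NC replicate 1) to 70 (without activin replicate 2), with 32 and 34 without NC replicates 2 and 3 and 34 without activin replicate 1, and 0 members were higher in any of these 6 fits. The median was -0.58 with limma on log2(FPKM + 1) and -0.67 to -0.58 with 1 library left out. For activin + HGF against activin, 25 were called, and 8 with a log2 change of at least 1, 7 at an adjusted p under 0.01 and 6 with only the groups compared. Leaving out 1 library gave 5 (without activin replicate 1) to 48 (without activin replicate 2), with 10 without activin replicate 3 and 15, 15 and 14 without activin + HGF replicates 1, 2 and 3, and medians of 0.19 to 0.34. The median of 0.27 reversed to -0.07 with library totals and to -0.10 with limma on log2(FPKM + 0.1) or log2(FPKM + 1). The medians of all genes were then -0.38, -0.31 and -0.22, so the members lay 0.31, 0.21 and 0.12 above them. For activin + HGF against control, 39 were called, and 25 with a log2 change of at least 1, 65 with library totals, 72 and 73 with limma at pseudocounts of 0.1 and 1, where the medians were -0.61, -0.64 and -0.57. Leaving out 1 library gave 33 to 46 and medians of -0.42 to -0.28. Except where another scaling shows it, the cause was not tested.

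With the replicate block, 58, 19 and 39 members were called in the 3 comparisons, against 57, 25 and 39 without it. Among all called members, 0 of 57, 0 of 25 and 0 of 39 reversed in any alternative, and 28, 4 and 33 were called in every alternative fit. Without the members sharing at least 50% of their sequence, 55, 24 and 39 were called. With 3 libraries per group, changes near the threshold depend on single libraries.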
